A study of Mus musculus with 8 samples.

Results

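Glycolysis turns glucose into pyruvate, and the 39 genes described here cover its supply and its branch points: glucose uptake and the first phosphorylation (5 genes), upper glycolysis to the triose phosphates (9), lower glycolysis to pyruvate (6), lactate formation and transport (4), pyruvate entry into the mitochondrion (5), the pentose phosphate pathway (4), and the hypoxia-inducible factors (HIF) with some of their regulators and targets (6). The genes were taken by name from the deposited count table, which has 54532 entries, and each of the 39 names was found. All 39 passed the filter on low counts, as did 15009 genes in all.

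Glucose enters blood cells through facilitative transporters and is trapped by hexokinases as glucose 6-phosphate. That sugar goes down glycolysis, paced by phosphofructokinase, or into the pentose phosphate pathway, which makes ribose for nucleotides and NADPH. Pyruvate is then reduced to lactate or oxidised by the pyruvate dehydrogenase complex, which the pyruvate dehydrogenase kinases switch off. With oxygen present, prolyl hydroxylases of the EGLN family mark HIF alpha subunits for destruction through VHL, and in low oxygen the stable subunits turn on many glycolytic genes. Quiescent blood stem cells of the marrow are known for leaning on glycolysis, with HIF and the pyruvate dehydrogenase kinases among the proteins that hold them in that state.

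RNA was sequenced from LSK cells, the lineage-negative, Sca-1-positive and c-Kit-positive marrow fraction that holds blood stem cells and early progenitors. There were 3 libraries from AML1/ETO mice, whose genotype is given as Runx1-Runx1t1, the fusion made by the t(8;21) translocation of acute myeloid leukaemia, and 5 libraries from Control mice given as wild type. Both groups were C57BL/6 mice that had received 4 injections of poly(I:C) at 5 mg/kg on alternate days, and their cells were sorted 4 weeks later. The cells were held in DMEM with a little serum around the sort, and the labels used here give neither the ages nor what drives the allele. They do not say that libraries came from separate animals, so the p-values measure the spread between these libraries.

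The libraries held 14693080 to 16433454 counted reads in AML1/ETO and 16374232 to 17527043 in Control. Runx1t1, the partner of Runx1 in the fusion that the genotype names, stood at 53.9 to 123 CPM (reads per 1000000 counted, after scaling) in AML1/ETO and 1.58 to 7.68 CPM in Control. Ly6a, which encodes Sca-1, stood at 221 to 921 CPM in AML1/ETO and at 8.26 to 23.4 CPM in Control, although both groups were sorted on that protein. Kit, which encodes c-Kit, stood at 913 to 1697 CPM in AML1/ETO and 378 to 469 CPM in Control. The summed level of 11 LSK and stem cell genes was 3240 to 4666 CPM in AML1/ETO and 1551 to 1955 CPM in Control. Of these 11 genes, 9 rose and 1, Mecom, fell. Xist, which marks a female X pair, stood at 1972 to 2168 CPM in AML1/ETO and 0 to 6.51 CPM in Control, so sex cannot be told apart from genotype; of the 39 genes, Pgk1, Pdha1, Pdk3 and G6pdx lie on the X chromosome. The summed level of 12 mast cell and basophil markers was 2527 to 6878 CPM in AML1/ETO and 37.5 to 105 CPM in Control. Cpa3 alone held 1771, 3627 and 6135 CPM of it in AML1/ETO libraries 1, 2 and 3. Of 9 tested markers 6 rose and 1 fell. The one that fell, Prss34, was at 0 in every AML1/ETO library. Cma1, Mcpt4, Tpsb2 and Tpsab1 were at 0 in every Control library. Mcpt4 and Tpsab1 were also at 0 in AML1/ETO libraries 2 and 3, and Tpsb2 in AML1/ETO library 3. Summed markers of other lineages differed in direction. For 9 stroma and endothelium genes the sum was 349 to 460 CPM in AML1/ETO and 167 to 220 CPM in Control, and of 5 tested 2 rose and 2 fell. The sums of megakaryocyte, dendritic cell and erythroid genes overlapped between the groups. Those of the lineages that follow were lower. For 12 neutrophil genes the sum was 386 to 1284 CPM in AML1/ETO and 1491 to 3760 CPM in Control, and 5 of 10 tested fell. For 10 macrophage and monocyte genes it was 45.0 to 65.9 CPM in AML1/ETO and 167 to 361 CPM in Control, and 4 of 8 fell. For 10 B and plasma cell genes it was 9.16 to 21.8 CPM in AML1/ETO and 139 to 282 CPM in Control, and 6 of 8 fell. For 9 T and NK cell genes it was 5.22 to 9.31 CPM in AML1/ETO and 60.9 to 116 CPM in Control, and 1 of 2 fell. Of these lists Ly6g, Ms4a1, Cd3e, Cd3d and Cd3g were at 0 in every library, and Ighm, Cd79a and Pax5 in every AML1/ETO library. The summed level of 16 proliferation genes was 1110 to 1959 CPM in AML1/ETO and 3321 to 3841 CPM in Control, and 14 of 15 immediate early genes rose. AML1/ETO library 1 and Control library 1 stood apart together on the second principal component of all tested genes (14.3% of the variance), at 106 and 102, while the other 6 libraries lay between −52.7 and −14.7. With both left out, 7 of the 39 genes rose and 10 fell: Hk2 and Tpi1 missed the threshold (adjusted p = 0.0687 and 0.0705) and Pfkl and Pfkfb4 passed it (0.000796 and 0.0467). What part these differences have in the results below was not tested, and in bulk RNA fewer cells of a type cannot be told apart from less RNA per cell.

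In AML1/ETO cells 6 of the 39 genes rose and 11 fell by edgeR's quasi-likelihood test at a Benjamini-Hochberg adjusted p below 0.05 over all genes tested. The share that rose was 15.4%, against 11.6% of all genes tested, and the share that fell was 28.2%, against 14.2%. Scaled by library totals alone, which moved the median over all genes by −0.15 on the log2 scale, 6 of the 39 rose and 14 fell, and 34.2% of all calls were rises, against 44.9% with the TMM scaling used here. The uptake genes Slc2a3 and Hk2, the phosphofructokinase gene Pfkm, the pyruvate dehydrogenase kinase genes Pdk1 and Pdk2 and the HIF-2 alpha gene Epas1 rose. Pfkp, Pfkfb3, Tpi1, Pgk1, Pkm, Ldhb, Tkt, Taldo1, Hif1a, Egln3 and Vegfa fell. The median log2 fold change of the 39 genes was −0.27, against −0.09 for all genes tested.

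Of the 5 uptake and phosphorylation genes 2 rose and 0 fell (median log2 fold change 0.46), and of the 5 pyruvate entry genes 2 rose and 0 fell (median 0.09). Upper glycolysis held 1 rise and 3 falls among 9 genes (median −0.27). Of the 6 lower glycolytic genes 0 rose and 2 fell (median −0.81), of the 4 lactate genes 0 rose and 1 fell (median −0.24), and of the 4 pentose phosphate genes 0 rose and 2 fell (median −0.70). Among the 6 HIF genes 1 rose and 3 fell (median −0.65). These counts are a description, and no test compared one stage with another.

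**Figure D1:**
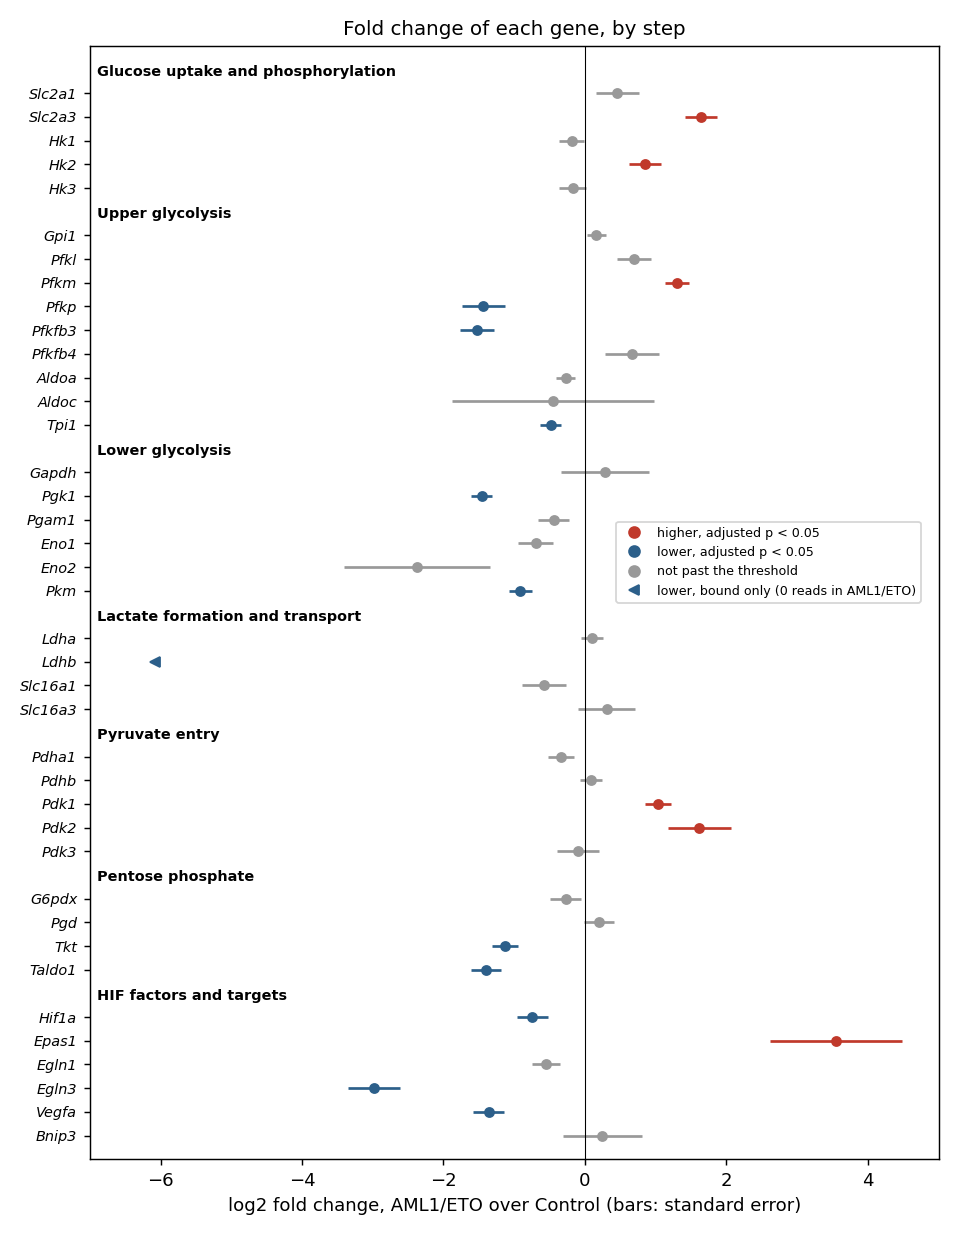
Log2 fold change of each of the 39 genes, AML1/ETO over Control, from edgeR's fit to 3 and 5 libraries, grouped by stage; bars are standard errors and colours mark genes past an adjusted p of 0.05. Slc2a3, Hk2, Pfkm, Pdk1, Pdk2 and Epas1 lie to the right of 0, and the arrow for Ldhb marks a bound, since its AML1/ETO libraries held 0 reads.

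Every AML1/ETO library lay above every Control library for 6 of the 39 genes (15.4%, against 14.1% of all genes tested) and below every Control library for 13 (33.3%, against 17.5%). The 6 were the genes that rose. The 13 held Eno1, Eno2 and Egln1, which did not pass the adjusted threshold, and lacked Hif1a, which passed it although its groups overlapped.

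Of the 2 glucose transporter genes, the one that rose was Slc2a3 (chromosome 6, 122727809 to 122801640, minus strand, mm10), which encodes the high-affinity transporter GLUT3. Slc2a3 stood at 421, 191 and 367 CPM in AML1/ETO, against 104, 113, 100.1, 120.1 and 86.5 CPM in Control. The lowest AML1/ETO library lay above the highest Control library, and AML1/ETO library 2 was the lowest of its group. The means were 327 ± 120 CPM in AML1/ETO (SD, n = 3) and 105 ± 12.9 CPM in Control (SD, n = 5), a 3.12-fold difference (log2 fold change 1.64 ± 0.23 SE, with an adjusted p of 0.000324). Slc2a1, which encodes GLUT1, the transporter of most growing cells, overlapped between the groups at 39.1 to 117 CPM in AML1/ETO and 43.3 to 64.6 CPM in Control (log2 fold change 0.46, adjusted p = 0.314).

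Levels per exonic kilobase are divided by the length of all annotated exons of a gene, so comparisons between genes depend on the annotation. On that scale Slc2a1 made up 36.5, 29.7 and 26.7% of the Slc2a1 and Slc2a3 reads in AML1/ETO, against 42.7 to 56.2% in Control (median 53.3%). The groups did not overlap. The share was 20.3 percentage points lower in AML1/ETO (two-sided exact permutation p = 0.0357, the smallest that 3 against 5 libraries allows, and 0.0536 after Benjamini-Hochberg adjustment over 6 families). On raw counts, without division by length, the difference was −16.0 percentage points. The summed level of both transporters was 66.1 ± 27.2 CPM per kilobase in AML1/ETO and 29.8 ± 3.19 in Control.

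Hexokinases commit glucose to the cell, and Hk2 (chromosome 6, 82725025 to 82774454, minus strand), the inducible isoform, was the hexokinase gene that rose. Hk2 stood at 64.7, 52.2 and 47.5 CPM in AML1/ETO, against 32.1, 32.7, 21.1, 30.0 and 36.3 CPM in Control. The groups did not overlap, and the difference was 1.80-fold (log2 fold change 0.85 ± 0.23 SE, with an adjusted p of 0.0184). Leaving out AML1/ETO library 1 gave an adjusted p of 0.0655, and with both libraries numbered 1 left out it was 0.0687.

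Hk2 had the lowest level of the hexokinase genes in every library. Per exonic kilobase it made up 14.3, 8.95 and 10.1% of hexokinase reads in AML1/ETO, against 5.75, 6.00, 4.05, 5.83 and 6.61% in Control (exact p = 0.0357, adjusted 0.0536). Hk1, the housekeeping isoform, averaged 407 CPM in AML1/ETO and 463 CPM in Control (log2 fold change −0.19, adjusted p = 0.502), and Hk3, an isoform of myeloid cells, averaged 100.2 CPM in AML1/ETO and 113 CPM in Control (log2 fold change −0.17, adjusted p = 0.575). The summed hexokinase level overlapped between the groups at 84.1 ± 11.9 CPM per kilobase in AML1/ETO and 90.1 ± 3.19 in Control.

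Of the genes of phosphofructokinase, the pacing enzyme of glycolysis, Pfkm rose and Pfkp fell. Pfkm (chromosome 15, 98092589 to 98132451, plus strand), the muscle isoform, stood at 102, 109 and 109 CPM in AML1/ETO, against 34.6, 46.7, 48.1, 43.0 and 45.1 CPM in Control. All 3 AML1/ETO libraries were close together and more than 2 times the highest Control library, with a log2 fold change of 1.30 (± 0.17 SE, with an adjusted p of 0.000227). Pfkp (chromosome 13, 6579768 to 6648777, minus strand), the platelet isoform, stood at 84.7, 29.9 and 36.4 CPM in AML1/ETO, against 141, 151, 121, 132 and 136 CPM in Control. It fell without overlap (log2 fold change −1.44 ± 0.30 SE, with an adjusted p of 0.00481), and AML1/ETO library 1 stood nearest to Control: without it the log2 fold change was −2.04.

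Pfkl, the liver isoform, stood at 94.9, 214 and 222 CPM in AML1/ETO, against 118, 118, 104, 104 and 103 CPM in Control. AML1/ETO library 1 lay below every Control library and the other two well above, and the gene did not pass the threshold (log2 fold change 0.69, adjusted p = 0.0515); leaving that library out gave a log2 fold change of 0.99 and an adjusted p of 0.000391. Pfkl passed the threshold under 8 of 19 alternative settings. Among them, with every library kept, were DESeq2 (adjusted p = 0.01665) and limma-voom with quality weights (adjusted p = 0.00972). Per exonic kilobase, Pfkp made up 12.4, 3.34 and 3.95% of phosphofructokinase reads in AML1/ETO, against 27.2, 26.2, 23.2, 25.7 and 26.0% in Control, a difference of −19.1 percentage points (exact p = 0.0357, adjusted 0.0536). On raw counts, without division by length, the difference in the Pfkp share was −30.9 percentage points. Pfkm held 52.1% in AML1/ETO and 32.9% in Control on average. Per exonic kilobase the summed level was higher in AML1/ETO without overlap, at 62.3 ± 9.68 CPM in AML1/ETO and 39.6 ± 1.93 in Control. This lack of overlap depends on dividing by exonic length, which is 13401 bases for Pfkp and 3340 for Pfkm.

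Parts of both loci are shared with a neighbour. The span of Pfkm overlaps that of Senp1, on the opposite strand, over 1156 bases, and the span of Pfkp overlaps that of Pitrm1, also opposite, over 748 bases. No source used here says whether the counting used strand, and reads in these stretches cannot be assigned with certainty. Senp1 held 1285 to 1637 reads per library over all 8 libraries, where Pfkm held 592 to 1746.

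**Figure D2:**
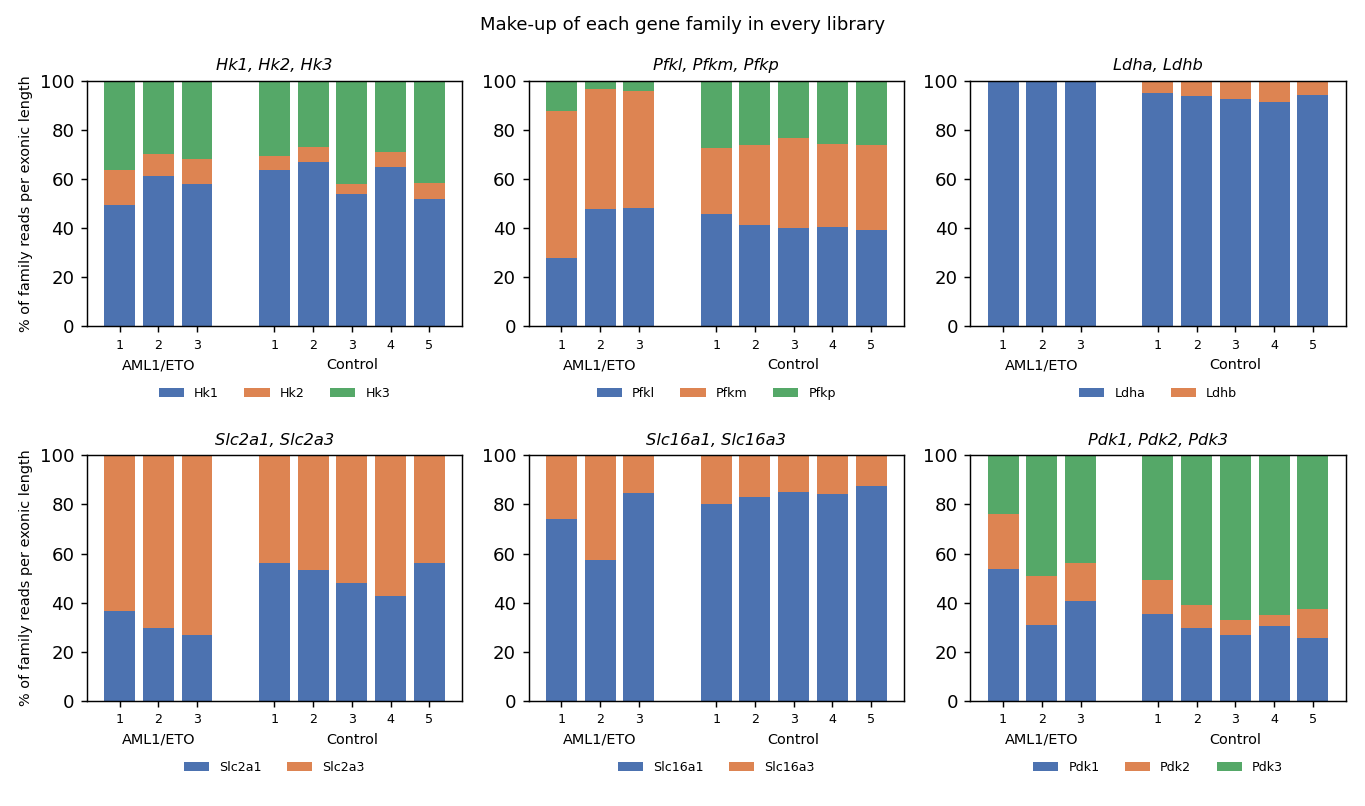
Share of each isoform in its gene family, in percent of family reads per exonic length, for the 3 AML1/ETO and 5 Control libraries of 6 families. The Pfkp share lies at 3.34 to 12.4% in AML1/ETO and 23.2 to 27.2% in Control, and the Ldhb share is 0 in AML1/ETO and 4.92 to 8.48% in Control.

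Pfkfb3 (chromosome 2, 11471433 to 11554077, minus strand) makes fructose 2,6-bisphosphate, the strongest activator of phosphofructokinase, and it fell. It stood at 83.0, 86.2 and 69.9 CPM in AML1/ETO, against 311, 286, 166, 221 and 165 CPM in Control. The AML1/ETO libraries were alike while the Control libraries spread 1.89-fold, and the groups did not overlap (log2 fold change −1.53 ± 0.24 SE, with an adjusted p of 0.000799). Pfkfb4, a related enzyme, stood at 21.8 to 26.7 CPM in AML1/ETO and 9.18 to 27.8 CPM in Control and did not reach the threshold (log2 fold change 0.66, adjusted p = 0.238).

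Among the other upper glycolytic genes Tpi1 alone passed the threshold. Tpi1 (chromosome 6, 124810586 to 124814296, minus strand), the triose-phosphate isomerase gene, stood at 125, 153 and 174 CPM in AML1/ETO, against 199, 220.0, 228, 209 and 198 CPM in Control. It fell by 0.49 on the log2 scale (± 0.15 SE, with an adjusted p of 0.0359), and it missed the threshold under 13 of 19 alternative settings, among them without AML1/ETO library 1 or 2 and without any single Control library, with an adjusted p of up to 0.126. Gpi1, glucose-6-phosphate isomerase, averaged 526 CPM in AML1/ETO and 469 CPM in Control (adjusted p = 0.434). Aldoa, the main aldolase, averaged 301 CPM in AML1/ETO and 363 CPM in Control (log2 fold change −0.27, adjusted p = 0.169), while Aldoc, the brain aldolase, stayed at 0 to 7.95 CPM over all libraries. The name Aldoa has a second entry in the table, ENSMUSG00000114515, which stood at 0 to 4.88 CPM over all libraries (adjusted p = 0.908).

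In lower glycolysis Pgk1 and Pkm fell. Pgk1 (chromosome X, 106187100 to 106203699, plus strand), phosphoglycerate kinase, the first step to yield ATP, stood at 111, 129 and 121 CPM in AML1/ETO, against 319.5, 330, 383, 296 and 320.4 CPM in Control. Both groups were tight and far apart, with a mean of 120.1 ± 9.24 CPM in AML1/ETO (SD, n = 3) and 329.7 ± 32.3 CPM in Control (SD, n = 5). Pgk1 was 2.75-fold lower (log2 fold change −1.46 ± 0.15 SE, with an adjusted p of 3.89e-05), the smallest adjusted p among the 39 genes. Its locus lies on the X chromosome, where Pdha1, Pdk3 and G6pdx did not pass the test (adjusted p = 0.197, 0.865 and 0.425), and 68.0% of its 50-base stretches also occur in other genes, chiefly the retrogene Pgk1-rs7, which held 6 to 54 reads per library.

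Pkm (chromosome 9, 59656368 to 59679375, plus strand), pyruvate kinase, the last step of glycolysis, stood at 414, 492 and 631 CPM in AML1/ETO, against 1065, 1052, 956, 909 and 844 CPM in Control. The groups did not overlap and the gene fell 1.89-fold (log2 fold change −0.91 ± 0.16 SE, with an adjusted p of 0.00168). Per exonic kilobase Pkm stood at 193 ± 18.8 CPM in Control and at 102 ± 22.0 CPM in AML1/ETO. The span of Pkm overlaps that of Gm49759, on the same strand, over 3887 bases. Gm49759 held 220 to 1261 reads per library over all libraries, where Pkm held 5462 to 18217. Reads in this stretch cannot be assigned with certainty. Eno1, the main enolase, stood at 113, 199 and 279 CPM in AML1/ETO, against 279.8, 312, 365, 303 and 337.5 CPM in Control. Its AML1/ETO libraries were all lower, library 3 by a narrow margin, and it did not reach the threshold (log2 fold change −0.70 ± 0.24 SE, with an adjusted p of 0.0543); leaving out AML1/ETO library 3 gave an adjusted p of 0.00845.

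Eno2, the neuronal enolase, was low throughout, at 5.30, 2.06 and 0 CPM in AML1/ETO, against 19.5, 8.92, 10.1, 13.4 and 11.8 CPM in Control. The groups did not overlap, yet the adjusted p was 0.112 (log2 fold change −2.38, SE 1.03). Pgam1, phosphoglycerate mutase, averaged 86.0 CPM in AML1/ETO and 117 CPM in Control (log2 fold change −0.44, adjusted p = 0.168). Gapdh, normally an abundant transcript, ranged from 20.7 to 71.6 CPM in AML1/ETO and from 14.5 to 99.8 CPM in Control (adjusted p = 0.806). For Gapdh 58.4% of the 50-base stretches recur in 218 other genes, and the copy Gm7336 held 130 to 423 reads per library, so this level is uncertain; the same share was 49.5% for Eno1, 41.5% for Pgam1 and 23.7% for Pkm.

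**Figure D3:**
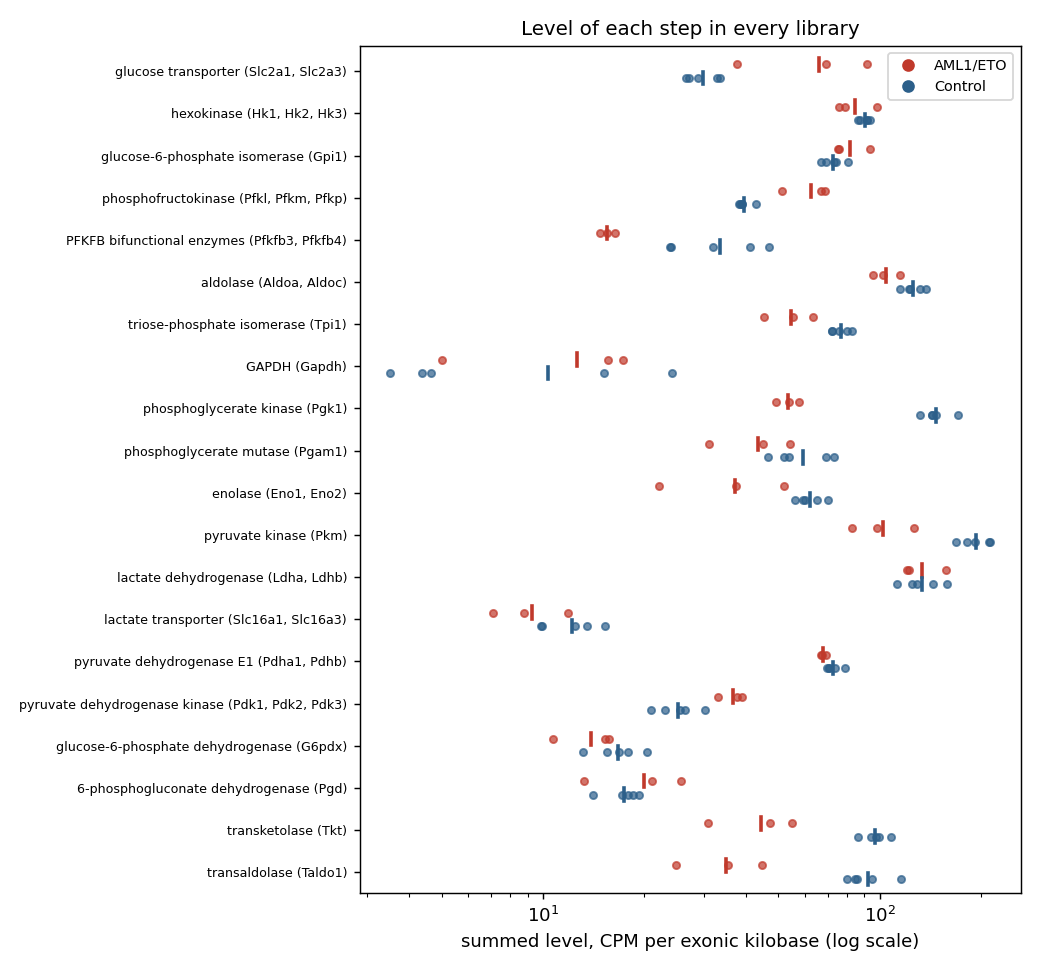
Summed level of the genes of each enzymatic step in every library, in CPM per exonic kilobase on a log axis, with a vertical tick at each group mean. The AML1/ETO points for the PFKFB enzymes, aldolase, triose-phosphate isomerase, phosphoglycerate kinase, enolase and pyruvate kinase lie left of all Control points. So do those for pyruvate dehydrogenase E1, transketolase and transaldolase. Those for glucose transport, phosphofructokinase and pyruvate dehydrogenase kinase lie right of all Control points.

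In the lactate dehydrogenase family the minor subunit gene fell to 0 reads, and the major one did not pass the test. Ldhb (chromosome 6, 142490249 to 142507957, minus strand), the heart-type subunit, had 0 reads in each AML1/ETO library, against 8.66, 12.2, 18.5, 16.7 and 12.9 CPM in Control. Set against a floor of 3 reads per library, which covers counting error only, it was at least 67.6-fold lower in AML1/ETO (adjusted p = 7.14e-05). Ldha, the muscle-type subunit that supplied most of the family, averaged 440.5 ± 69.5 CPM in AML1/ETO and 413 ± 52.7 CPM in Control (log2 fold change 0.09, adjusted p = 0.735).

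Ldhb made up 0% of the family per kilobase in AML1/ETO and 4.92 to 8.48% in Control (exact p = 0.0357, adjusted 0.0536), while the summed level was 133 ± 21.0 CPM per kilobase in AML1/ETO and 134 ± 17.6 in Control. A loss to 0 in every AML1/ETO library was not usual at this level: of 1678 genes that averaged 10 to 20 CPM in Control, 39 (2.32%) showed it. In AML1/ETO libraries 1, 2 and 3 taken singly, 6.08, 4.35 and 7.63% of these genes had 0 reads. The lactate transporter genes overlapped between the groups. Slc16a1, which encodes MCT1, averaged 30.5 CPM in AML1/ETO and 45.5 CPM in Control (log2 fold change −0.58, adjusted p = 0.192), and Slc16a3, which encodes the exporter MCT4, averaged 12.6 CPM in AML1/ETO and 10.2 CPM in Control (log2 fold change 0.31, adjusted p = 0.646).

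At pyruvate entry Pdk1 and Pdk2, 2 of the kinase genes that inhibit the pyruvate dehydrogenase complex, rose, while Pdk3 and the genes of the enzyme's own E1 subunits did not pass the test. Pdk1 (chromosome 2, 71873224 to 71903858, plus strand), a kinase induced by HIF-1, stood at 138, 93.5 and 119 CPM in AML1/ETO, against 62.9, 47.9, 53.0, 62.6 and 59.9 CPM in Control. The groups did not overlap (2.04-fold, log2 fold change 1.03 ± 0.18 SE, with an adjusted p of 0.00155). Pdk2 (chromosome 11, 95026258 to 95041354, minus strand), a widely expressed isoform, stood at 23.6, 24.6 and 18.8 CPM in AML1/ETO, against 10.1, 6.22, 4.95, 3.55 and 11.6 CPM in Control. Its AML1/ETO libraries were all higher (3.07-fold, log2 fold change 1.62 ± 0.45 SE, with an adjusted p of 0.0201), and leaving out AML1/ETO library 2 gave an adjusted p of 0.0584.

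Pdk3, the X-linked isoform, overlapped between the groups at 20.3 to 48.9 CPM in AML1/ETO and 30.0 to 48.4 CPM in Control (log2 fold change −0.10, adjusted p = 0.865). Pdk4, which was read in the wider lists, averaged 0.782 CPM in AML1/ETO and 2.41 CPM in Control (adjusted p = 0.596). The summed level of Pdk1, Pdk2 and Pdk3 per kilobase was 36.6 ± 3.03 CPM in AML1/ETO and 25.2 ± 3.55 CPM in Control, with no overlap. The Pdk1 share of the family was 41.7 ± 11.4% in AML1/ETO and 29.5 ± 3.82% in Control, which did overlap (exact p = 0.0714, adjusted 0.0857), and without AML1/ETO library 1 the difference of 12.2 percentage points shrank to 6.27. The Pdk2 share averaged 19.4% in AML1/ETO and 9.15% in Control, and the Pdk3 share 38.9% in AML1/ETO and 61.4% in Control. Neither share overlapped between the groups, and neither was tested. Pdha1 and Pdhb, the subunits of the E1 enzyme that the kinases act on, had log2 fold changes of −0.34 (adjusted p = 0.197) and 0.09 (adjusted p = 0.738). Their summed level per kilobase was 67.9 ± 1.03 CPM in AML1/ETO and 72.6 ± 3.61 CPM in Control, lower without overlap.

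In the pentose phosphate pathway Tkt and Taldo1, of the non-oxidative branch, fell. Tkt (chromosome 14, 30548359 to 30574720, plus strand), transketolase, stood at 226, 404 and 347 CPM in AML1/ETO, against 733, 692, 794, 632 and 718 CPM in Control. Taldo1 (chromosome 7, 141392199 to 141402968, plus strand), transaldolase, stood at 54.0, 96.8 and 76.7 CPM in AML1/ETO, against 252, 183, 206, 173 and 185 CPM in Control. For both genes every AML1/ETO library was lower and AML1/ETO library 1 was the lowest. Tkt fell 2.19-fold (log2 fold change −1.13 ± 0.19 SE, with an adjusted p of 0.00102) and Taldo1 fell 2.64-fold (log2 fold change −1.40 ± 0.22 SE, with an adjusted p of 0.000657).

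The genes of the oxidative branch, which yields NADPH, did not pass the test and overlapped between the groups. G6pdx, the entry enzyme, averaged 42.7 CPM in AML1/ETO and 51.5 CPM in Control (log2 fold change −0.27, adjusted p = 0.425), and Pgd averaged 129 CPM in AML1/ETO and 112 CPM in Control (log2 fold change 0.20, adjusted p = 0.549). The difference between the branches was not tested. G6pdx lies opposite Ikbkg, with which its span overlaps over 19712 bases and which held 692 to 995 reads per library.

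**Figure D4:**
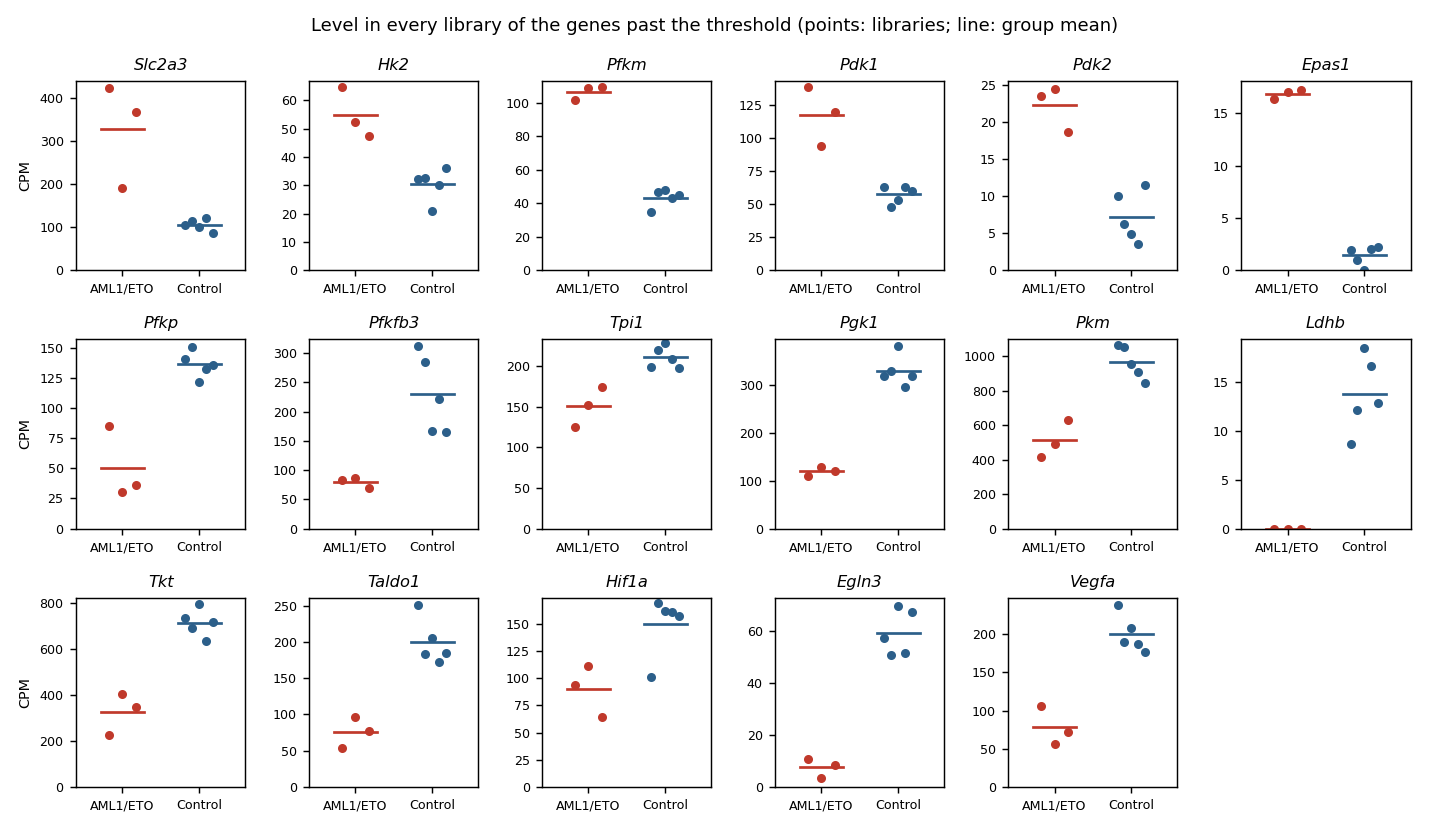
Level in CPM of the 17 genes past the threshold, with a point for each of the 3 AML1/ETO and 5 Control libraries and a line at the group mean. Only for Hif1a do the points of the groups overlap.

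Of the HIF alpha genes, Hif1a fell and Epas1 rose. Hif1a (chromosome 12, 73901375 to 73947530, plus strand), HIF-1 alpha, the subunit tied most closely to glycolytic genes, stood at 93.9, 111 and 64.2 CPM in AML1/ETO, against 101, 169, 162, 161 and 158 CPM in Control. Control library 1 lay among the AML1/ETO libraries and the other Control libraries above them all. Hif1a fell by 0.74 on the log2 scale (± 0.22 SE, with an adjusted p of 0.0302), and the adjusted p passed 0.05 without AML1/ETO library 3 (0.112) and without Control library 2, 3, 4 or 5 (0.0737 to 0.0844).

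Epas1 (chromosome 17, 86753700 to 86833410, plus strand), HIF-2 alpha, stood at 16.4, 17.0 and 17.2 CPM in AML1/ETO, against 1.93, 0.938, 0, 2.04 and 2.24 CPM in Control. The AML1/ETO libraries were nearly equal and all higher, 11.8-fold on average (log2 fold change 3.55 ± 0.93 SE, with an adjusted p of 0.0155). With 3 libraries of each group (numbers 1 to 3) the adjusted p was 0.0526. Per exonic kilobase Epas1 stood at 3.01 CPM in AML1/ETO and 0.256 CPM in Control, and Hif1a at 15.2 CPM in AML1/ETO and 25.5 CPM in Control, so Hif1a had the higher level in both groups.

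The oxygen-sensing hydroxylases are both regulators of HIF and, for Egln3, a strong HIF target. Egln3 (chromosome 12, 54178981 to 54203860, minus strand), which encodes PHD3, stood at 10.8, 3.37 and 8.44 CPM in AML1/ETO, against 57.4, 50.7, 69.7, 51.8 and 67.6 CPM in Control. The groups were far apart, and the fall was 7.88-fold (log2 fold change −2.98 ± 0.37 SE, with an adjusted p of 0.000151). Egln1, which encodes PHD2, the main oxygen sensor, stood at 46.1, 53.0 and 35.7 CPM in AML1/ETO, against 60.2, 69.3, 68.4, 59.9 and 71.8 CPM in Control. All AML1/ETO libraries were lower, with an adjusted p just above the threshold (log2 fold change −0.55 ± 0.19 SE, with an adjusted p of 0.0564).

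Vegfa (chromosome 17, 46016993 to 46032369, minus strand), the angiogenic growth factor and a HIF target, stood at 106, 55.9 and 71.4 CPM in AML1/ETO, against 239, 190.4, 208, 187 and 177 CPM in Control. Vegfa fell 2.57-fold without overlap (log2 fold change −1.36 ± 0.22 SE, with an adjusted p of 0.000834). Bnip3, a HIF-1 target of mitochondrial autophagy, stood at 5.22, 5.06 and 18.6 CPM in AML1/ETO and averaged 8.10 ± 1.52 CPM in Control (adjusted p = 0.812).

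HIF binds DNA at short sites whose core reads ACGTG or GCGTG, and the promoters show how such letters lie in genes that rose and genes that fell. RefSeq promoters of GRCm38.p6, each from 250 bases before to 50 bases after a gene's start, were found for 37 of the 39 genes; Slc2a3 and Epas1 were not matched. A core on either strand was present in 30 of the 37 (81.1%), against 62.7% of 10276 tested genes and 43.8% of all 27025 genes with a promoter in the table. It was present in 4 of the 4 matched genes that rose, 8 of the 11 that fell and 18 of the 22 that did not pass the test. Below are 2 genes that rose and 2 that fell, on the gene's strand, with the core in capitals (read on the opposite strand it appears as CACGT or CACGC): Hk2 lies at chr6:82774405-82774704 (minus strand), Pdk1 at chr2:71872974-71873273 (plus strand), Pgk1 at chrX:106186850-106187149 (plus strand) and Egln3 at chr12:54203825-54204124 (minus strand).
Hk2: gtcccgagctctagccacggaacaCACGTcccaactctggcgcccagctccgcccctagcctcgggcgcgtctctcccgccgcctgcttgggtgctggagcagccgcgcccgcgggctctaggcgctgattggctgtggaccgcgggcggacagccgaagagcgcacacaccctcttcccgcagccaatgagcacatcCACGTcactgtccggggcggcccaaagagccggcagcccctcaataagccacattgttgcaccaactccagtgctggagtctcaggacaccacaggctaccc
Pdk1: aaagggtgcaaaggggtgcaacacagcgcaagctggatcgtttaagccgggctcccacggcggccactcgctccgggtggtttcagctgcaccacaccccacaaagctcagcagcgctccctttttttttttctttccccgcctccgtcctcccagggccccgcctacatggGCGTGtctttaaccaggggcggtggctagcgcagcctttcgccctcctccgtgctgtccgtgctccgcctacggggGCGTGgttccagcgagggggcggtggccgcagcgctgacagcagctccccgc
Pgk1: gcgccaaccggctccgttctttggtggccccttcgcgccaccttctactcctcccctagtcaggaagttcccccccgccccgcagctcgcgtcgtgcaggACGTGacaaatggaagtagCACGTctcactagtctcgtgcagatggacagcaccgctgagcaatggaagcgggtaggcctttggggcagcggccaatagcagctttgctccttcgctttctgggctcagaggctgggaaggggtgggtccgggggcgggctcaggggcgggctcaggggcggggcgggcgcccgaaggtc
Egln3: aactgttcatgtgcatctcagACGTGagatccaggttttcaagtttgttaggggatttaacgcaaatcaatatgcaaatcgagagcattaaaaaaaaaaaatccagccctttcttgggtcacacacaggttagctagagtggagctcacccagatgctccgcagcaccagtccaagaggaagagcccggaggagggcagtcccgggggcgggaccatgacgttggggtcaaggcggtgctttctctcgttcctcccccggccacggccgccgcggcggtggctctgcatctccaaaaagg

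Hk2 held 2 cores, both on the opposite strand and spelled CACGT, and Pdk1 held 2 cores of the form GCGTG. Pgk1 held 1 core on each strand, close together, and Egln3 held 1 core far upstream. Vegfa, which fell, held 0 cores in its window, which says only that these letters are not there. A match is a description of the letters and not a bound site.

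The wider pathway was read from 6 further lists with 101 genes, of which 77 were tested, 10 rose (13.0%) and 7 fell (9.1%), near or below the shares of all genes tested. Of 9 tested transport genes 2 rose and 0 fell. Slc2a8, which encodes the intracellular transporter GLUT8, stood at 84.0, 26.1 and 65.1 CPM in AML1/ETO, against 4.27, 8.15, 6.32, 6.64 and 2.93 CPM in Control (10.3-fold, log2 fold change 3.36, adjusted p = 0.000157). Slc2a9, a urate and hexose transporter, averaged 38.7 CPM in AML1/ETO and 14.4 CPM in Control (log2 fold change 1.43, adjusted p = 0.00356). As with Slc2a3, AML1/ETO library 2 was the lowest of its group for Slc2a8.

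Of 16 tested genes of glycolysis and gluconeogenesis 1 rose and 0 fell. It was Pfkfb2, a further PFKFB enzyme, which averaged 33.7 CPM in AML1/ETO and 16.2 CPM in Control (log2 fold change 1.05, adjusted p = 0.0310) and whose span overlaps that of Yod1 (478 to 724 reads per library). Leaving out AML1/ETO library 1 or Control library 2 or 3 gave an adjusted p of 0.121, 0.0623 and 0.0574 for it. None of 8 further pentose phosphate genes passed by edgeR, DESeq2 or limma-voom, and 1, Rpia, had an unadjusted p below 0.05 in edgeR; among them were Rpia (log2 fold change −0.97, adjusted p = 0.0823) and Rpe (−0.48, adjusted p = 0.498) of the non-oxidative branch. Of 9 genes of the pyruvate dehydrogenase complex and pyruvate import 1 fell: Dld, the E3 subunit, averaged 71.9 CPM in AML1/ETO and 118 CPM in Control (log2 fold change −0.71, adjusted p = 0.00681).

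Of 9 further tested genes of the HIF system 2 rose and 3 fell. Hif3a, whose products include inhibitory HIF alpha forms, stood at 157, 57.7 and 189.5 CPM in AML1/ETO, against 0, 0, 3.79, 0.582 and 0 CPM in Control (log2 fold change 7.23, adjusted p = 0.000533). Without Control library 3, which held most of the Control reads, the log2 fold change was 9.82. Hif3a was near 0 in every Control library and had the largest log2 fold change of the 3 HIF alpha genes. Egln2, which encodes PHD1, averaged 125 CPM in AML1/ETO and 78.2 CPM in Control (log2 fold change 0.68, adjusted p = 0.00987), opposite in direction to Egln3.

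Hif1an, the asparaginyl hydroxylase that blocks HIF activity, averaged 60.3 CPM in AML1/ETO and 132 CPM in Control (log2 fold change −1.13, adjusted p = 0.00430). Vhl, the ubiquitin ligase subunit that receives hydroxylated HIF, averaged 19.3 CPM in AML1/ETO and 45.0 CPM in Control (log2 fold change −1.22, adjusted p = 0.00498). In each of these genes the groups did not overlap.

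**Figure D5:**
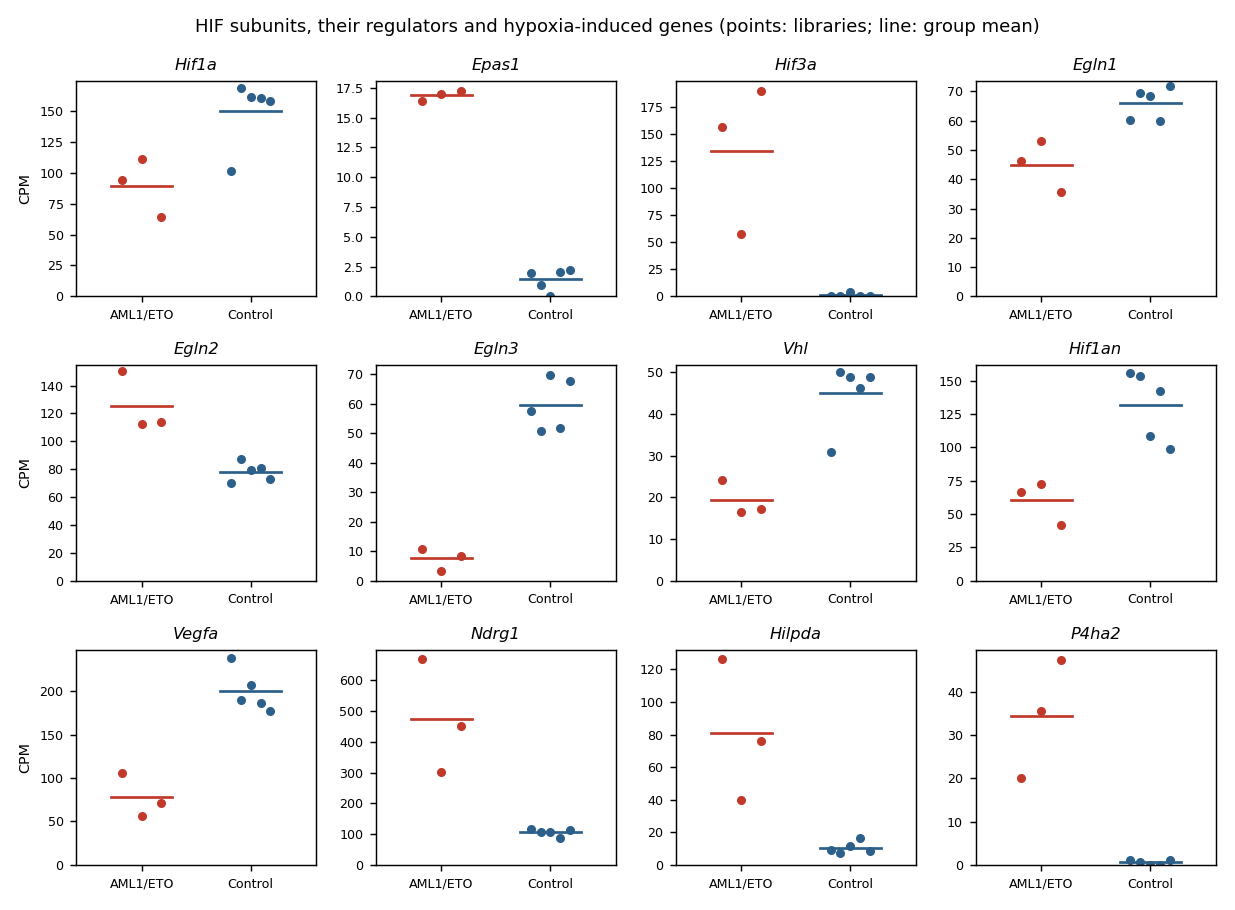
Level in CPM of the HIF alpha genes, their regulators and hypoxia-induced genes, with a point for each of the 3 AML1/ETO and 5 Control libraries and a line at the group mean. Epas1, Hif3a, Egln2, Ndrg1, Hilpda and P4ha2 lie higher in AML1/ETO, while Egln3, Vhl, Hif1an and Vegfa lie lower. Of the 27 tested genes of the wider hypoxia-induced list only some that rose are shown, and none of the 3 that fell.

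Of 27 tested hypoxia-induced genes 5 rose (18.5%, against 11.6% of all genes tested) and 3 fell (11.1%, against 14.2%). The other 19 did not pass the test, and the median log2 fold change was 0.23. Ndrg1, a stress-response gene, averaged 474 CPM in AML1/ETO and 106 CPM in Control (log2 fold change 2.17, adjusted p = 3.58e-05). Hilpda, which holds lipid droplets in hypoxic cells, averaged 80.8 CPM in AML1/ETO and 10.6 CPM in Control (log2 fold change 2.94, adjusted p = 0.000165), and P4ha2, a collagen prolyl hydroxylase, averaged 34.5 CPM in AML1/ETO and 0.570 CPM in Control (log2 fold change 5.90, adjusted p = 0.00106). Pgf, a VEGF family growth factor, had 0 reads in each AML1/ETO library and averaged 9.10 CPM in Control, at least 44.7-fold lower in AML1/ETO against the floor of 3 reads per library (adjusted p = 0.000443).

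How far the libraries of a group lay apart differed by gene. For Slc2a1 the SD was 39.8 CPM about a mean of 73.7 CPM in AML1/ETO and 9.83 CPM about 53.7 CPM in Control. For Pfkp the highest over the lowest library was 2.83-fold in AML1/ETO and 1.24-fold in Control, and for Pfkl it was 2.34-fold in AML1/ETO and 1.15-fold in Control. Pfkm, Epas1 and Pgk1 were at the other end, with spreads of 1.07-fold, 1.05-fold and 1.17-fold among AML1/ETO libraries. Of the 38 genes with reads in AML1/ETO, library 1 was the lowest of its group for 17 and the highest for 10.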

How the data were processed

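RNA-seq of sorted mouse LSK cells was used from 3 AML1/ETO and 5 Control libraries, grouped by the titles and genotypes in the labels. The deposited table holds raw read counts per gene; per the submitters' processing notes, these came from mm10 with HISAT2 2.0.5 and featureCounts 1.5.0-p3. Their gene annotation, use of strand and handling of reads with several matches: not given in the sources used here. Totals were 14693080 to 17527043 counts per library, so counting error is small beside the spread between libraries except for the lowest genes.

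The counts were filtered with filterByExpr, scaled by TMM and tested with edgeR 4.0.16 (R 4.3.3) by the quasi-likelihood test, AML1/ETO over Control, on 15009 genes, with Benjamini-Hochberg adjustment over all of them and a threshold of 0.05. CPM use the TMM-scaled totals. Coordinates and exonic lengths are from a GENCODE annotation of the same build, which matched 54409 of 54532 gene IDs. An exonic length counts each base of every annotated exon once. Isoform shares, per exonic length, were compared by a two-sided exact permutation test over the 56 arrangements of libraries. A gene with 0 reads in a group is compared with a floor of 3 reads per library, which covers counting error only. Shared sequence was counted as 50-base stretches of protein-coding transcripts that recur in another gene's transcripts. The test was also run on simulated counts, drawn independently for each gene and library. The outcome is not given here, and no result rests on that run.

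As alternatives the genes were tested with DESeq2 1.42.0 and with limma-voom and its quality weights (limma 3.58.1), and with edgeR under other scalings, no filter or a filter of 1 CPM in 3 libraries, leaving out each library, both libraries numbered 1, genes on X and Y, and a replicate block. Named are all 39 genes, with every library's value where the gene passed the threshold or its groups did not overlap, and up to 4 called genes per wider list by smallest p; Pdk4, Rpia and Rpe, library values of Pfkl, Bnip3, Slc2a8 and Hif3a, and the spreads, were chosen for print after the values were seen. The genes and lists were chosen with earlier results of these data known.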

Additional observations from a re-analysis of the deposited data

Results flagged for a closer look

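Hif1a in Control had a library that stood apart: Control library 1 held 101 CPM and the other Control libraries 158 to 169 CPM. The gap to the nearest library was 0.834 of the group's range, above the critical value of 0.71 for 5 libraries. Among 45 such checks this was the 1 that passed, and chance alone gives about 1 in 20. The AML1/ETO libraries held 64.2 to 111 CPM, and without Control library 1 Hif1a remained past the threshold.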

How the results depend on the processing

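Over 19 alternatives per gene, the 39 genes kept their direction where called and their side of the threshold 688 times, lost the threshold 27 times and gained it 22 times. Slc2a3, Pfkm, Pfkp, Pfkfb3, Pkm, Ldhb, Pdk1, Tkt, Taldo1, Egln3 and Vegfa passed under all 19, and Pgk1 under the 18 that keep the X chromosome. Among the 39 genes, leaving out 1 library in turn gave 5 to 7 that rose and 9 to 12 that fell; per stage it gave 1 to 2 uptake genes (1 without AML1/ETO library 1), 1 to 2 lactate genes (2 without AML1/ETO library 3) and 1 to 2 pyruvate entry genes (1 without AML1/ETO library 2). In the wider lists 6 to 11 genes then fell, 11 without AML1/ETO library 1 or 2. DESeq2 called 4 lower glycolytic genes, and leaving out X and Y left 1; leaving out both libraries numbered 1 left 1 uptake gene. Scaling by library totals alone moved the median of all genes by −0.15 and the share of calls that rose to 34.2%, against 44.9% with TMM and 49.9% with DESeq2 size factors; 6 and 14 of the 39 then rose and fell with totals alone, and 7 and 10 with the size factors.

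The deviations of libraries numbered alike correlated at 0.04, −0.04 and 0.03, so the numbers were not taken to pair the libraries, although both libraries numbered 1 stood apart on the second principal component; AML1/ETO libraries 1 and 2 correlated best with Control libraries numbered otherwise. Over libraries 1 to 3 the replicate block gave 1043 genes higher and 939 lower, and 1108 were lower without the block. Of the 39 genes the block left 3 that rose and 9 that fell, against 5 and 9 without it; the called genes then held 1 uptake gene, 1 pyruvate entry gene and 2 HIF genes, and 2 HIF genes also without the block. The log2 fold change of Epas1 was 4.91 with the block and 4.38 with limma-voom, against 3.55. The cause of these changes was not tested beyond the fewer libraries. With 3 against 5 libraries the isoform shares cannot go below an exact p of 0.0357, or 0.0952 without an AML1/ETO library, and at 0 reads Ldhb has only a bound.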
